A study of Homo sapiens with 14 samples.

Results

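The genes described here encode the subunits of the mitochondrial respiratory chain and ATP synthase, with their named relatives. They were chosen by symbol. A gene counted when the peak lists named it as the nearest protein-coding gene of a peak and its symbol began with NDUFA, NDUFB, NDUFC, NDUFS, NDUFV, UQCR, COX4 to COX8 or ATP5, or was an SDH subunit. The rule found 73 genes among the 13808 protein-coding genes that the lists name. Of these, 56 encode structural subunits and 17 are other genes that share the stems, such as the complex I assembly factors NDUFAF1 to NDUFAF7, tissue isoforms, paralogs and readthrough genes. By complex there were 31 genes of complex I, 7 NDUFAF assembly factors, 3 of complex II, 4 of complex III, 12 of complex IV and 16 of ATP synthase, also called complex V. The complex of a gene was read from its symbol.

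Chromatin immunoprecipitation with sequencing had been used to map the corepressor SKI and the transcription factor RUNX1 in HL60, a human acute myeloid leukaemia line. Of 14 samples, 4 peak lists were used. They were SKI in unmodified (WT) cells, replicate 1 (54841 peaks) and replicate 2 (14431 peaks), SKI in CRISPR/Cas9 control cells (14019 peaks), and RUNX1 in unmodified cells (5581 peaks). No treatment or time is given in the labels, every group is the same cell line, and whether the control cells are a clone is not stated. Cells with SKI deleted, IgG, histone marks and CEBPB were not analysed here. Each list is a single library, so no test between lists was run. The labels do not say whether the replicates came from separate cultures. Of 10 myeloid marker genes, MPO and SPI1 among them, 9, 8 and 6 had a promoter SKI peak in the 3 SKI lists, and no peak names 5 of 8 marker genes of other cells. A peak near a gene does not measure its expression.

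The respiratory chain moves electrons from NADH, at complex I, or succinate, at complex II, through ubiquinone, complex III and cytochrome c to oxygen at complex IV. The protons pumped on the way drive ATP synthase. Most subunits are encoded in the nucleus and made in the cytosol, so many separate promoters take part, and NRF1, the ETS factor GABP and YY1 are known regulators of many of them. SKI does not read DNA by itself in the textbook view but is brought to it by partners such as SMADs, whereas RUNX1 binds DNA directly.

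Promoter SKI peaks were present at nearly all of these genes in the longest list, and ranked low there. The authors' tss class, set in the file header with a window of 1250 bp, marks peaks at a transcription start site (TSS). In replicate 1, 66 of the 73 genes (90.4%) had such a peak, against 80.1% of all protein-coding genes named. Replicate 2 had 23 such genes (31.5%, against 35.8%), and the control list had 16 (21.9%, against 33.1%). RUNX1 had a tss-class peak at 2 genes (2.74%, against 6.34%). The SKI share therefore lay above that of all genes in the longest list and below it in both shorter ones. Counting structural subunits alone gave 51, 16 and 10 of 56 in the 3 SKI lists. A gene is named only by being nearest to a peak of some list, so a high share in the longest list is partly built in. With peaks of any class, replicate 1 held 72 of the 73 genes, against 98% of all protein-coding genes named.

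Strength was read from the authors' fold enrichment, the ratio of tags in a peak to the local background, and only within a list. The percentile of a gene is the place of its strongest tss-class peak among all tss-class peaks of that list. The median percentile of the respiratory chain genes was 39.1 and 28.3 in unmodified replicates 1 and 2 and 17.5 in control cells. For all protein-coding genes it was 57.4, 52.7 and 51.4. The matching median fold enrichments were 16.1, 7.04 and 6.74 for the respiratory chain genes and 22.4, 9.68 and 10.6 for all genes. In replicate 1, 22 of the 66 genes with a peak lay above the 50th percentile and 1, COX7A2L, lay above the 90th. Ranked by the raw count of tags, which grows with peak width, the medians were 47.6, 38.0 and 45.4, against 60.2, 51.1 and 51.8 for all genes. The value in control cells thus rests on 16 genes and moved from 17.5 to 45.4 with the measure used.

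**Figure D1:**
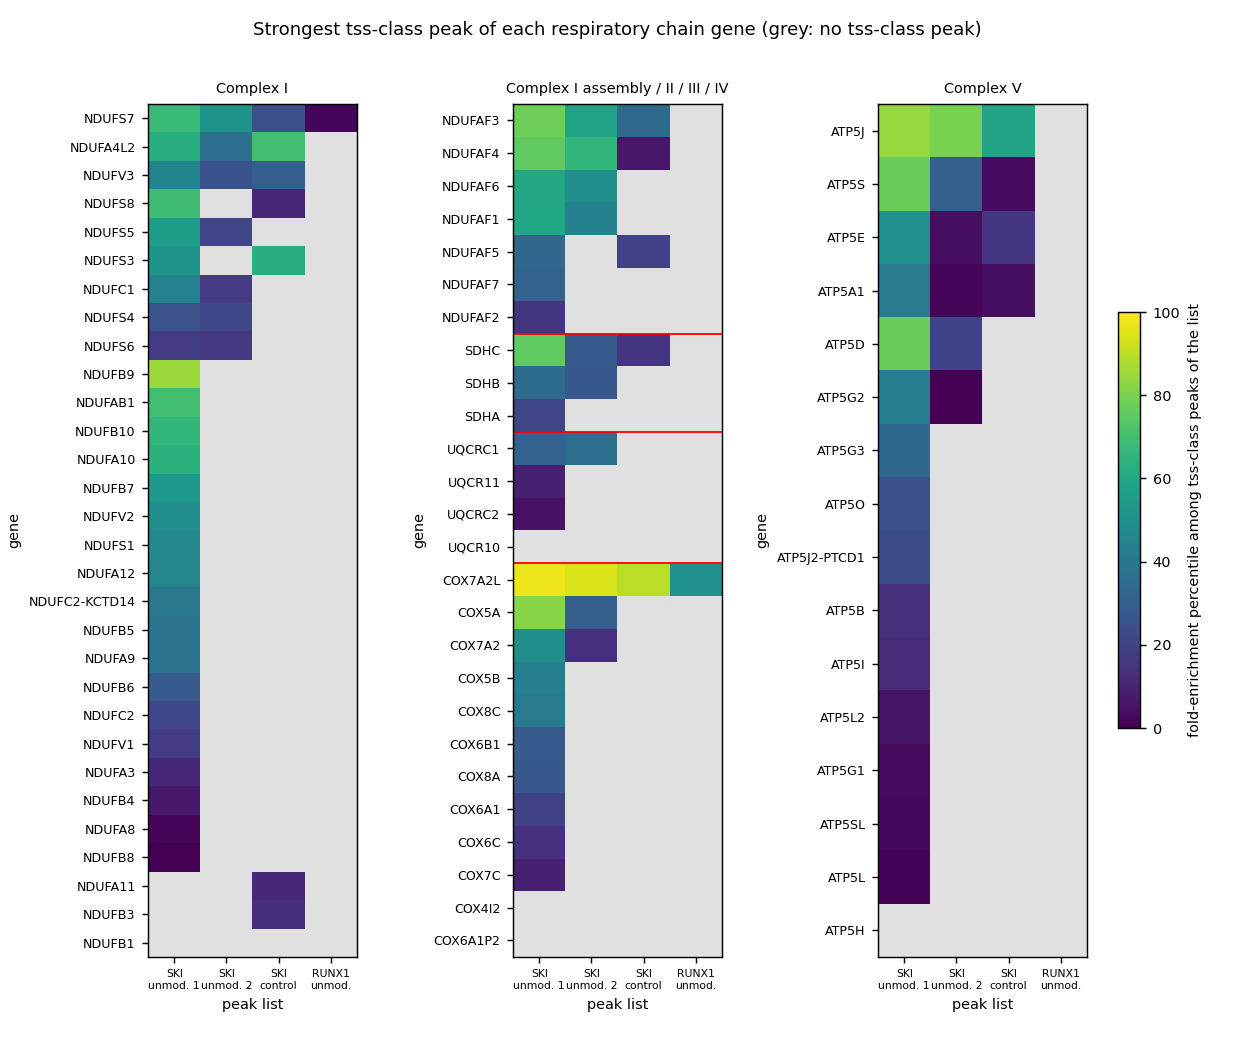
Heat map of the fold-enrichment percentile (colour, 0 to 100) of the strongest tss-class peak of a gene (rows) in the 4 peak lists (columns), with grey for no tss-class peak. Red lines part the assembly factors, complex II, complex III and complex IV. Of the 73 genes 72 are drawn, the RUNX1 column is filled for 2 of them, and COX7A2L is the row of highest percentiles.

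A tss-class peak in all 3 SKI lists was found at 11 genes (15.1%, against 24.1% of all protein-coding genes named). They were ATP5A1, ATP5E, ATP5J, ATP5S, COX7A2L, NDUFA4L2, NDUFAF3, NDUFAF4, NDUFS7, NDUFV3 and SDHC. Of the 56 structural subunits 6 were in this group (10.7%), and of the 17 other genes 5 (29.4%). The 5 others were the supercomplex factor COX7A2L, the paralog NDUFA4L2, the assembly factors NDUFAF3 and NDUFAF4, and the coupling factor gene ATP5S. At 10 of the 11 genes peaks of the 3 lists overlapped each other, and for all protein-coding genes with a peak in each list this share was 95.6%. NDUFV3 was the exception. Its peaks in replicate 2 (chr21:44313027-44313570) and control cells (chr21:44313670-44314421) did not overlap each other, though both lay within the replicate 1 peak (chr21:44312402-44314421). Their distances, -165 and 614 bp, are to the TSSs of different transcripts. Fold enrichment at the 11 genes ran from 16.8 to 89.9 in replicate 1, from 4.11 to 25.7 in replicate 2 and from 4.76 to 24.5 in control cells. With peaks of −log10 p of at least 10 alone, 6 genes kept a peak in all 3 lists, against 20.2% of all protein-coding genes. Replicate 2 was the list that lost most, from 23 genes to 9, against 27.9% of all genes at this threshold.

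**Figure D2:**
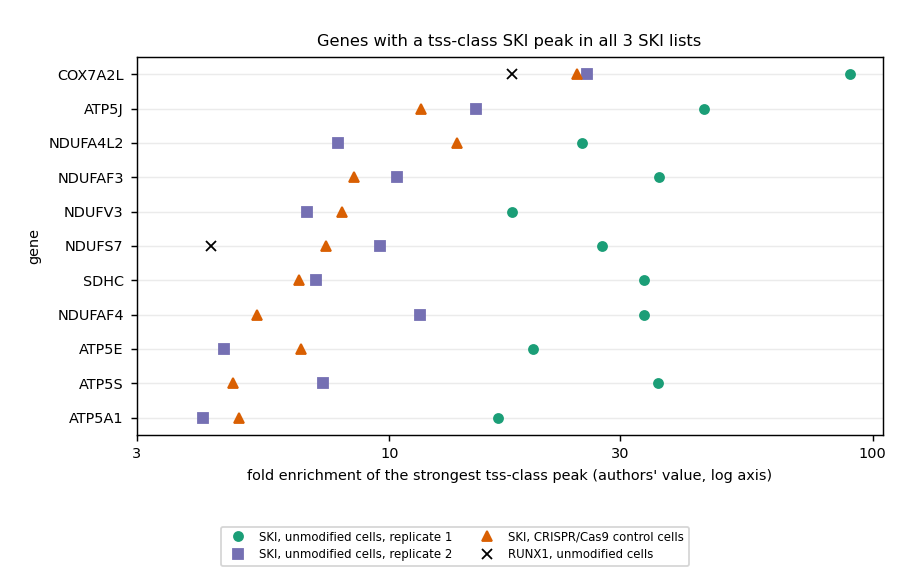
Fold enrichment (horizontal axis, log scale) of the strongest tss-class peak at the 11 genes that had one in all 3 SKI lists, ordered by their lowest percentile over the lists. Circles, squares and triangles are the SKI lists and crosses RUNX1; COX7A2L reached 89.9 in replicate 1 and ATP5A1 no more than 16.8.

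COX7A2L had the strongest promoter peak of the 73 genes in each of the 3 SKI lists. It encodes a relative of a complex IV subunit that helps to join complexes III and IV into supercomplexes, and is not counted here as a structural subunit. Its fold enrichments were 89.9 in replicate 1 (434 tags, 97.6th percentile), 25.7 in replicate 2 (66 tags, 94.3rd percentile) and 24.5 in control cells (89 tags, 89.7th percentile). The gene had a pair of tss-class peaks in each list. The nearer site spanned chr2:42586220-42587925 in replicate 1 (hg19), at -37 bp from the TSS, with 89.9, 19.3 and 24.5 in the 3 lists. The further site spanned chr2:42587934-42589433, at -491 bp from its nearest TSS, with 62.3, 25.7 and 14.1. RUNX1 had a peak at the first site (chr2:42586851-42587456, at -7 bp, fold enrichment 17.9, 43 tags), at the 50.5th percentile of tss-class RUNX1 peaks. Its summit lay 22, 8 and 0 bp from the summits of the 3 SKI peaks.

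RefSeq promoter windows give the letters before the RefSeq starts of 4 genes on GRCh38.p14, a build other than that of the peaks, and were not placed on the peaks. The upstream 250 bases are printed 5′ to 3′ on the strand of the gene. Capitals mark matches, on either strand, to the RUNX core TGTGGT or TGCGGT, the NRF1 shorter core GCATGCGC, the ETS core CCGGAAG or the YY1 shorter core AAGATGG. NDUFA4L2 is shown as a gene with a SKI peak in all 3 lists and a RUNX core in its window, though no RUNX1 peak was assigned to it. NDUFS7 is shown as the structural subunit with SKI and RUNX1 at its TSS. SDHB and COX5B are shown as subunit genes with matches to both the NRF1 and ETS cores. Coordinates are chr12:57240763-57241012 (minus strand), chr19:1383657-1383906 (plus strand), chr1:17054033-17054282 (minus strand) and chr2:97645812-97646061 (plus strand) in that order.
NDUFA4L2: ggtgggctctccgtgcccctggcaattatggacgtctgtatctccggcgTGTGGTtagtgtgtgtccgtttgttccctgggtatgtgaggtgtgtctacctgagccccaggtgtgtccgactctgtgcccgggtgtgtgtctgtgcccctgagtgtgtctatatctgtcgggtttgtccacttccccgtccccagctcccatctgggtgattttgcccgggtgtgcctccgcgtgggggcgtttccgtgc
NDUFS7: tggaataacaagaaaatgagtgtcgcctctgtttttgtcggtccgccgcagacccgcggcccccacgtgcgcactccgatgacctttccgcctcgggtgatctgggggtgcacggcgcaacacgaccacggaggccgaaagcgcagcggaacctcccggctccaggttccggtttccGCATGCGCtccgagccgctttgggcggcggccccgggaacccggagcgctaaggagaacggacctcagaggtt
SDHB: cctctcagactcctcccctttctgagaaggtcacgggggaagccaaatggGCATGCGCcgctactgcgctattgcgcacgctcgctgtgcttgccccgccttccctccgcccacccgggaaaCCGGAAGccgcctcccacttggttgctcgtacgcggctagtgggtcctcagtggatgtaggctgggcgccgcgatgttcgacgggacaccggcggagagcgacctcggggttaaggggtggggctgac
COX5B: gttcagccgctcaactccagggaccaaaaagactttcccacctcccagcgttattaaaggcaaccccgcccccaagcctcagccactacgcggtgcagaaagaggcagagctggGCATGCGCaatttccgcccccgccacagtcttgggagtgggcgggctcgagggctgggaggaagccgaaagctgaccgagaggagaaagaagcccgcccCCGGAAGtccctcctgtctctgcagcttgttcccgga

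In NDUFA4L2 the RUNX core stands on the strand of the gene, 201 bases before the start. COX7A2L, which is not printed, holds a RUNX core on the opposite strand in each of 2 separate windows. They stand 22 and 27 bases before the starts of these windows. Neither window was placed on the RUNX1 peak of the gene. NDUFS7 holds no RUNX core in its window and has the NRF1 shorter core 73 bases before the start. Whether the NDUFS7 window lies under its RUNX1 peak was likewise not established. SDHB has the NRF1 and ETS cores at 200 and 128 bases before the start, and COX5B at 136 and 37. Distances are to the first base of the match as printed.

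Complex I, the entry point for NADH, had a tss-class SKI peak at 28 of 31 genes in replicate 1, 7 in replicate 2 and 7 in control cells. All 7 of its core subunits named in the lists, most of which bind NADH, flavin, iron-sulphur clusters or ubiquinone, had one in replicate 1, at a median percentile of 51.8. For the 22 accessory subunits the count was 19 and the median percentile 38.3. NDUFS7, which carries the iron-sulphur cluster next to ubiquinone, had fold enrichments of 27.5, 9.58 and 7.40 with 392, 127 and 70 tags in replicate 1, replicate 2 and control cells. Its value was highest in replicate 1, as for each of the 11 genes, and its percentile went from 67.3 to 51.9 and 24.3. NDUFV3, a small accessory subunit near the NADH site, had 17.9, 6.77 and 7.97.

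NDUFS8 and NDUFS3, both core subunits, had a peak in replicate 1 and control cells and none in replicate 2. At NDUFS8, an iron-sulphur subunit, the values were 28.6 and 6.03, and the peaks lay 481 and 496 bp inside the gene. At NDUFS3 they were 20.2 and 12.35, and the control value stood on 35 tags. NDUFS1, the largest core subunit (18.6, 218 tags), and NDUFV2, an iron-sulphur subunit (19.3, 312 tags), had tss-class peaks in replicate 1 alone, as did NDUFV1, which binds NADH and flavin (10.3, 96 tags). At the NDUFV2 start the replicate 2 list has a peak of 7.33 under RP11-21J18.1, a transcript 129 bp away. NDUFC1, NDUFS4, NDUFS5 and NDUFS6, all accessory subunits, had peaks in both unmodified lists and none in control cells. Their values ran from 10.5 to 21.7 in replicate 1 and from 6.01 to 6.41 in replicate 2. NDUFA4L2, a paralog of NDUFA4 that is known to be induced in hypoxia, had 25.02, 7.85 and 13.8, with 738 tags in replicate 1, the most of any gene here. Its place in complex I follows from its symbol, as NDUFA4 is now assigned to complex IV and the RefSeq symbol is COXFA4L2.

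The assembly factors NDUFAF1 to NDUFAF7 build complex I and do not stay in it. All 7 had a tss-class SKI peak in replicate 1, 4 in replicate 2 and 3 in control cells, and their median percentile in replicate 1, 59.5, was the highest of the 6 groups. NDUFAF3 had fold enrichments of 36.2, 10.4 and 8.46 and NDUFAF4, its partner in assembly, 33.7, 11.6 and 5.33. The NDUFAF3 peak in replicate 1 spanned chr3:49057060-49060742, with 682 tags, and replicate 2 had 3 separate tss-class peaks there. NDUFAF1 and NDUFAF6 had peaks in both unmodified lists (23.4 and 8.61, and 23.9 and 9.26). NDUFAF5 had 14.4 in replicate 1 and 6.91 in control cells, and NDUFAF2 and NDUFAF7 had peaks in replicate 1 alone.

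All 3 named genes of complex II, which oxidises succinate, had a tss-class peak in replicate 1. SDHC, a membrane anchor, had 33.6, 7.04 and 6.51 in the 3 lists, with 292, 42 and 70 tags. SDHB, the iron-sulphur subunit, had 15.1 and 6.97 in the unmodified lists and no peak in control cells. SDHA, the flavoprotein, had 11.4 in replicate 1 and no other peak. The SDHB peak of 28.1 in replicate 1, 6444 bp upstream, was stronger than its promoter peak.

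Complex III, which passes electrons from ubiquinone to cytochrome c, had no gene with a tss-class peak in control cells. UQCRC1, a core protein, had 13.9 and 7.79 in the unmodified lists. The other core protein, UQCRC2, had 6.87, and the small subunit UQCR11 had 8.12, both in replicate 1 alone. The group's median percentile in replicate 1, 8.96 over 3 genes, was the lowest of the 6 groups. An upstream peak 3329 bp from UQCRC1 reached 45.5.

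In complex IV, the oxidase, COX7A2L was the single gene with a tss-class peak in control cells. COX5A, a structural subunit, came next, with 41.3 and 7.22 in the unmodified lists, followed by COX7A2 with 19.4 and 5.76. COX5B, COX6A1, COX6B1, COX6C, COX7C, COX8A and COX8C had a tss-class peak in replicate 1 alone. Their values ran from 8.12 at COX7C, on 35 tags, to 17.4 at COX5B, on 109 tags. COX8C, at 16.7, is an isoform best known from testis.

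ATP synthase had a tss-class peak at 15 of 16 genes in replicate 1, 6 in replicate 2 and 4 in control cells. ATP5J, coupling factor 6 of the peripheral stalk, was second to COX7A2L among the 11 shared genes by its lowest percentile over the lists, with 44.7, 15.1 and 11.6 and percentiles of 84.6, 79.9 and 58.4. In RefSeq the window before this start overlaps GABPA, the gene of the DNA-binding GABP subunit, so a peak at this start lies near both genes. ATP5A1, the alpha subunit of the F1 head, had 16.8, 4.11 and 4.88, and ATP5E, the epsilon subunit, had 19.8, 4.56 and 6.57. In the shorter lists these peaks ranked low, ATP5A1 at percentiles of 1.34 and 3.69 and ATP5E at 3.54 and 15.7. ATP5S, or factor B, had 35.9, 7.29 and 4.76. Its tag counts were 205, 40 and 41.

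ATP5D, the delta subunit, had 35.2 and 6.32 in the unmodified lists, in peaks 1293 and 1345 bp upstream. In replicate 1 it also had tss-class peaks at 5 bp (19.6, 154 tags) and at 529 bp (28.3, 129 tags). ATP5G2 had 17.3 and 3.52, the latter at the 0.112th percentile of its list. ATP5G1, ATP5G2 and ATP5G3 encode the same mature c subunit of the rotor ring, and in replicate 1 their values were 5.89, 17.3 and 14.4. ATP5B, the catalytic beta subunit, had 9.43 in replicate 1 alone. ATP5L, a membrane subunit, had 5.09 there.

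**Figure D3:**
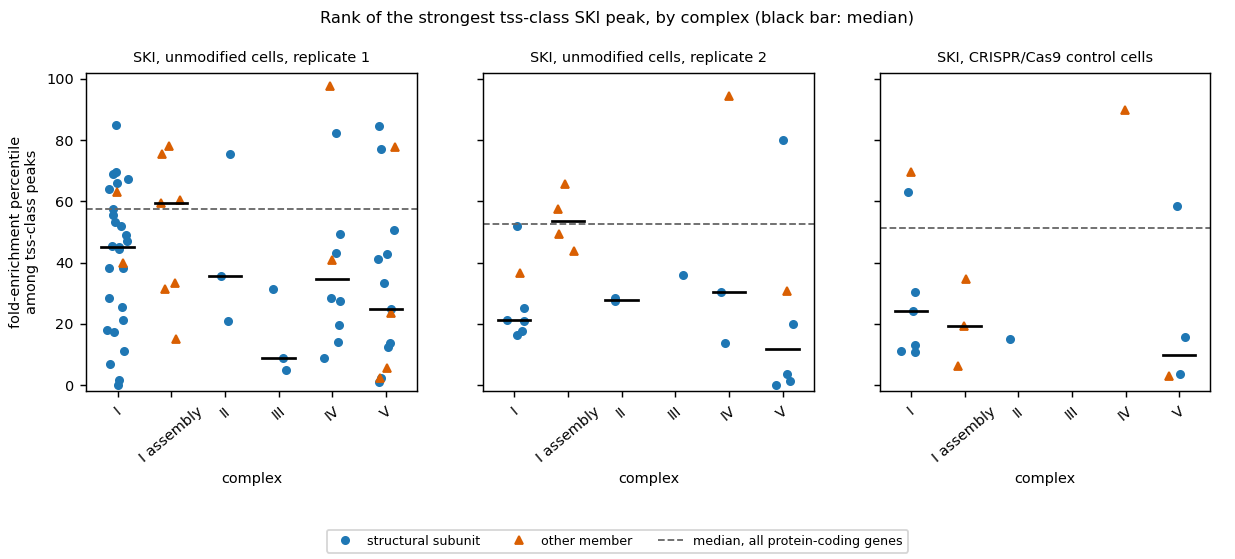
Fold-enrichment percentile (vertical axis) of the strongest tss-class SKI peak of each gene by complex, in the 3 SKI lists. Circles are structural subunits, triangles other genes, black bars group medians for 2 or more genes, and the dashed line the median over all protein-coding genes (57.4, 52.7 and 51.4). Most points lie below the line, and the assembly factors of complex I have a median of 59.5 in replicate 1.

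A peak in replicate 1 alone was the commonest pattern, found at 40 genes (54.8%, against 39.1% of all protein-coding genes named). Peaks in both unmodified lists without control cells were at 12 genes (16.4%, against 9.78%). Peaks in replicate 1 and control cells without replicate 2 were at 3 genes (4.11%, against 7.13%). Among genes of replicate 1 alone, NDUFB9, an accessory subunit, was strongest at 45.1 with its peak 1304 bp upstream. Next were NDUFAB1, the mitochondrial acyl carrier protein (29.1), and NDUFB10, an accessory subunit of the membrane arm (26.8). NDUFB8, another membrane-arm subunit, was the weakest of the 40 at 4.07, the 0.166th percentile, followed by ATP5L (5.09) and NDUFA8 (5.62).

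Sharing went with strength in replicate 1. The median fold enrichment there was 33.6 for the 11 genes of all 3 lists, 18.5 for those of both unmodified lists, 20.2 for those of replicate 1 and control cells, and 12.2 for those of replicate 1 alone. For all protein-coding genes the same medians were 40.7, 23.8, 24.5 and 15.8. In each class the respiratory chain genes were lower. Across genes with a peak in both lists, the Spearman rho of fold enrichment was 0.658 between the unmodified lists (23 genes), 0.200 between replicate 1 and control cells (14 genes) and 0.564 between replicate 2 and control cells (11 genes). Over all protein-coding genes it was 0.724, 0.670 and 0.619. The points of a list share 1 library, and genes are not independent replicates.

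NDUFA11 and NDUFB3, accessory subunits of complex I, had a tss-class peak in control cells and none in replicate 1, which is 2.74% of the 73. A peak in replicate 2 or control cells without replicate 1 was found at 2.84% of all protein-coding genes, so this count stood at the background. Their values were 6.05 and 6.27. In replicate 1 the peaks over the same TSS had been assigned to other genes, at NDUFA11 to AC024592.12 (17.3) and at NDUFB3 to FAM126B (16.7), whose start lies 62 bp away on the opposite strand. FAM126B also took the replicate 2 peak there (8.02).

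Of the 73 genes, 5 had no tss-class SKI peak (6.85%, against 17.1%), namely ATP5H, COX4I2, COX6A1P2, NDUFB1 and UQCR10. ATP5H, a stalk subunit, had exon peaks 1768 and 1763 bp into the gene in replicate 1 (16.4) and control cells (11.6). COX4I2, an isoform best known from lung, had an intergenic peak 23775 bp downstream in replicate 1 (15.6). NDUFB1, an accessory subunit, had an exon peak at 2412 bp in replicate 1 (10.1). The UQCR10 start lies 422 bp from that of ZMAT5, which took the promoter peaks of both unmodified lists (11.4 and 5.81), and UQCR10 itself had an upstream-class peak 5083 bp away (12.2). COX6A1P2, a retrocopy by its name, had peaks of 50.4 and 29.4 in replicate 1 at 5561 and 6822 bp. The site at 6822 bp also had a peak in replicate 2 (12.8, at 6814 bp) and in control cells (5.37, at 6805 bp).

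The authors name the nearest gene alone. TSSs could be rebuilt only for transcripts that a peak names. By these, another gene's TSS lay within 1000 bp at 11 of the 73 genes, and this count is a minimum. In RefSeq, promoter windows of further members overlap other genes, such as HAUS1 at ATP5A1 and DALRD3 at NDUFAF3. NDUFB5 and MRPL47 start 16 bp apart on opposite strands, and NDUFAF5 and ESF1 58 bp apart. A peak at such a pair lies at both promoters. Counting any peak centred within 1000 bp of a TSS rebuilt from the lists gave 67, 25 and 16 genes, against 80.2%, 37.2% and 34.2% of all protein-coding genes. In all 3 SKI lists it gave 12, against 26.1%.

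Promoter peaks at the respiratory chain genes lay close to the start. Of their tss-class peaks, 83.1% in replicate 1, 88.9% in replicate 2 and 83.3% in control cells were within 250 bp of a TSS. For tss-class peaks of all protein-coding genes the shares were 64.1%, 70.2% and 64.1%. The median distances were -12, 6 and -21 bp. Peaks far from the start were few but included the strongest peak of ATP5D, that of NDUFB9 and a peak of NDUFA4L2 at 1433 bp in replicate 2. In replicate 1, 10 of the 73 genes had 2 or more tss-class peaks (against 22.1% of all protein-coding genes named), NDUFC1 and SDHB among them. The median width of the strongest peak in replicate 1 was 1145 bp, against 1322 bp for all genes.

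**Figure D4:**
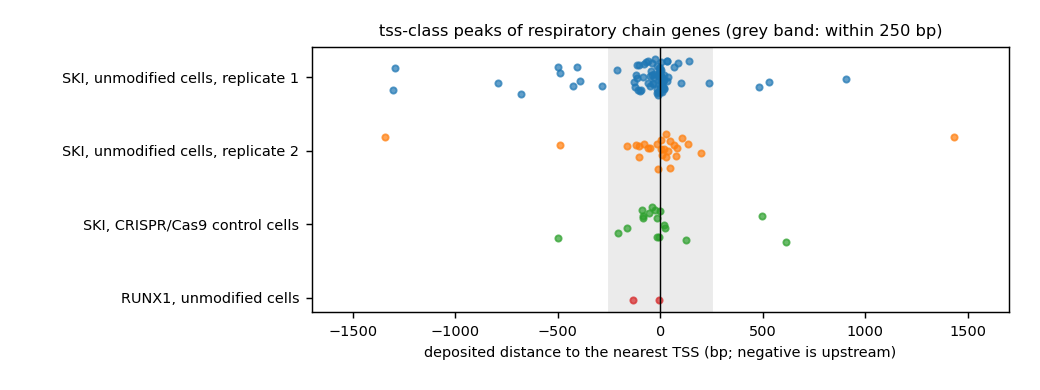
Deposited distance from the nearest TSS (horizontal axis, bp, negative is upstream) of every tss-class peak of the respiratory chain genes, in 77, 27, 18 and 2 peaks of the 4 lists, with vertical scatter for legibility. The grey band is 250 bp on either side; it holds 83.1%, 88.9% and 83.3% of the SKI peaks.

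Outside the tss class the genes had 29, 3 and 5 SKI peaks in the 3 lists and 4 RUNX1 peaks. In replicate 1 the strongest peak lay outside the class at 10 of the 66 genes with a tss-class peak (15.2%, against 25.5% of all protein-coding genes with one). COX7C, a small complex IV subunit gene, had 67.2 at a site 90913 bp upstream against 8.12 at its start. NDUFV2 had 42.4 at 28764 bp upstream against 19.3 at its start. Such distant peaks are assigned by proximity, and which gene they serve was not tested.

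RUNX1 peaks of any class were nearest to 6 of the 73 genes (8.22%), against 17.1% of all protein-coding genes named. Each of the 6 overlapped a SKI peak. Among all protein-coding genes a RUNX1 peak overlapping SKI was found at 16.8%, or 2313 of the 2360 genes with a RUNX1 peak. At COX7A2L and NDUFS7 the overlap was with all 3 SKI lists, a pattern found at 2.74% of the 73 and 10.5% of all genes. The peak at NDUFS7 (chr19:1383103-1383660) was weak, with a fold enrichment of 4.27 on 36 tags, the 1.56th percentile of tss-class RUNX1 peaks. Its summit lay 591, 314 and 462 bp from those of the SKI peaks, unlike at COX7A2L. NDUFS7 was the single structural subunit with RUNX1 at its TSS.

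The other 4 RUNX1 peaks lay away from promoters. At COX7C the peak (chr5:85822550-85823134) was 90926 bp upstream, with 16.9 for RUNX1, 67.2 for SKI in replicate 1 and 17.0 in control cells. At COX8C it lay in an intron at 22661 bp (chr14:93835974-93836652), with 18.1 for RUNX1 and 35.3 and 7.03 for SKI in the same lists. At NDUFV2 it lay 28809 bp upstream (chr18:9073624-9074138), with 15.7 for RUNX1 and 42.4 and 9.04 for SKI in the unmodified lists. At COX6A1P2 it lay at 5546 bp (chr6:37017982-37018433), with 17.5 for RUNX1 and 50.4 for SKI in replicate 1. At these 4 sites the RUNX1 and SKI summits were 11 to 69 bp apart. By fold enrichment the 5 RUNX1 peaks other than that at NDUFS7 stood between the 39.9th and 49.2nd percentiles of all RUNX1 peaks.

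Promoter windows of 300 bases, from 250 before to 50 after a RefSeq start, were matched for 57 of the 73 genes. They were compared with 15842 protein-coding genes, both strands being searched. Unlike the 13808 genes used above, these 15842 include genes that no peak names, so the 2 backgrounds differ. The NRF1 shorter core GCATGCGC was in 21.1% of the respiratory chain genes and 4.89% of all. The YY1 shorter core AAGATGG was in 24.6% and 7.90%, and its longer form AAGATGGCG in 12.3% and 3.21%. For the ETS core CCGGAAG the shares were 26.3% and 16.5%. For the RUNX core TGTGGT or TGCGGT they were 28.1% and 23.6%, and for CAGAC, the SMAD box, 47.4% and 51.3%. The CCAAT box was in 33.3% and 42.1%, the GC box GGGCGG in 56.1% and 64.3%, and the E-box CACGTG in 10.5% and 10.9%. The longer YY1 form contains the shorter one. A match is a run of letters and not a measured site.

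Genes around the pathway were read the same way. Counts are of listed genes that a peak names, such as 18 of 28 regulators and 28 of 40 assembly factors. Among all protein-coding genes named, the shares were 80.1%, 35.8% and 33.1% in the 3 SKI lists and 24.1% in all 3. The regulators of mitochondrial biogenesis had a tss-class SKI peak at 17 (94.4%), 12 and 10 of 18 genes, in all 3 lists at 7 (38.9%). Their median percentiles were 75.7, 67.3 and 72.4. In replicate 2 and control cells their shares, 66.7% and 55.6%, were the highest of the 6 pathway lists. NFE2L2, the antioxidant response factor, had 97.5, 23.0 and 36.2 with RUNX1 at 21.6. TFAM, which packages mitochondrial DNA, had 39.4, 4.19 and 14.7 with RUNX1 at 17.1. At NFE2L2 the RUNX1 peak lay at -896 bp from its nearest TSS and the SKI peaks at -54, 10 and -61 bp. At TFAM the RUNX1 peak lay at -765 bp and the SKI peaks at -49, -17 and -95 bp. Overlap of RUNX1 and SKI peaks is not given for genes outside the 73. YY1 had 46.6, 12.7 and 7.48, PPARGC1B, a coactivator gene, 45.8, 12.3 and 14.6, and NRF1 47.7 in replicate 1 alone.

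Assembly factors outside the symbol rule had peaks at 27, 12 and 10 of 28 genes (96.4%, 42.9% and 35.7%), in all 3 lists at 7 (25%). The shares in control cells and in all 3 lists were near those of all protein-coding genes, 33.1% and 24.1%. COA1, an assembly factor of complex IV, had 107, 50.1 and 96.4 with RUNX1 at 29.3, above every respiratory chain gene in each list. Its SKI peaks lay at 410, -161 and -143 bp from their nearest TSS and its RUNX1 peak at 382 bp. COX20 had 83.7, 29.1 and 20.5. Electron carriers and quinone synthesis genes had peaks at 16, 8 and 2 of 18 (88.9%, 44.4% and 11.1%), COQ2 with 40.7, 13.8 and 17.1. Genes of the tricarboxylic acid cycle and pyruvate dehydrogenase supply the chain with electrons. Of 19 such genes, 17, 3 and 1 had a peak (89.5%, 15.8% and 5.26%), and DLAT was the gene with one in all 3 lists. Mitochondrial ribosomal protein genes had 66, 23 and 18 of 68 (97.1%, 33.8% and 26.5%), with median percentiles of 39.6, 40.6 and 37.2. Cytosolic ribosomal protein genes had 68, 30 and 19 of 75 (90.7%, 40% and 25.3%), with 44.6, 30.1 and 24.1.

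**Figure D5:**
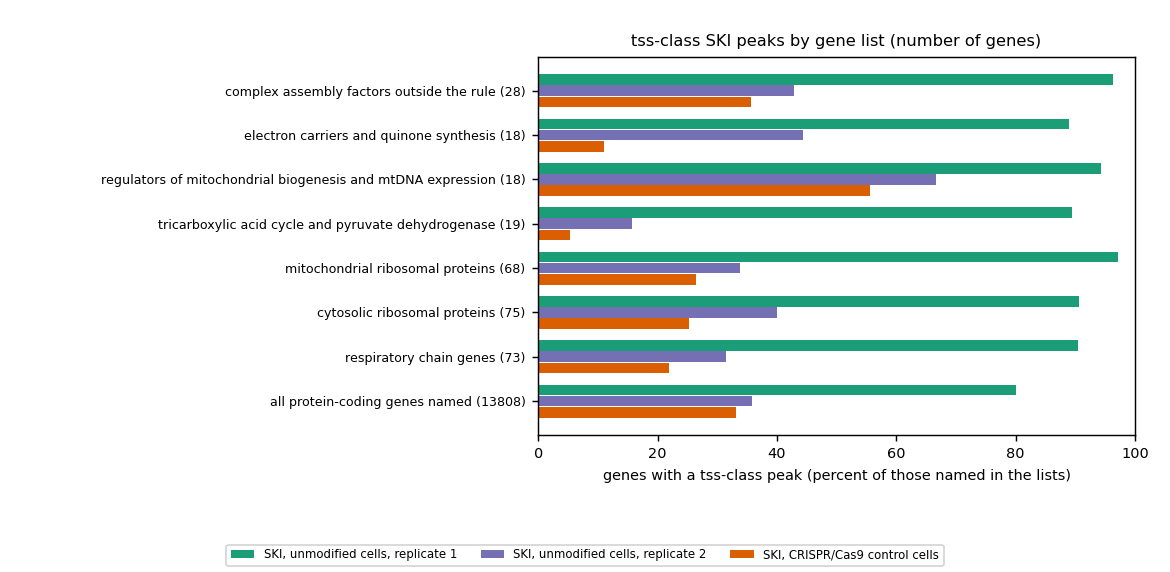
Share of genes with a tss-class SKI peak (horizontal axis, percent of the genes named in the lists, number in brackets) for the respiratory chain genes, 6 further gene lists and all protein-coding genes, with 1 bar for each SKI list. In replicate 1 every gene list shown lies between 88.9% and 97.1%, above the 80.1% of all genes, and in control cells the respiratory chain genes stand at 21.9% against 33.1%.

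The symbols that the peak lists use are older than those of RefSeq. Of 96 current protein-coding symbols with these stems, 72 were named in the lists under a current or older name, and 24 were nearest to no peak used here. Among the 24 were COX4I1, UQCRFS1, UQCRH and SDHD. A gene that is nearest to no peak cannot enter the 73 or the 13808, so all shares above are of genes with at least 1 peak in some list.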

How the data were processed

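SKI and RUNX1 chromatin immunoprecipitation was measured in HL60 cells, and the 4 peak lists were grouped by sample title. The submitters' processing notes name MACS 1.4, Bowtie2, deepTools and bcl2fastq, with the builds GRCh37 and hg19. The control library, the filters and the depth are not stated there. Per the file headers, the authors' lists give for each peak the −log10 p-value, the fold enrichment as a ratio, the count of tags, a position class and the nearest transcript with a signed distance. Peaks were called per sample. The deposited FDR was not used.

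Counts of genes, percentiles of fold enrichment and overlaps of at least 1 bp were computed with Python 3.11.15, numpy 2.4.6 and pandas 2.3.3, and figures with matplotlib 3.10.9. No hypothesis test was run, since there is 1 library per list. The percentile step was tested on simulated data. TSSs were rebuilt from summits and distances. Promoter letters came from RefSeq windows. The members and lists were chosen with earlier results of these data known. Genes were named where they had a RUNX1 peak, by the highest and lowest lowest-percentile among genes shared by all 3 SKI lists, by pattern, and as SDH genes, and further ones after their values were seen. The values of 1 member gene are not reported here. Alternatives were other classes, distances, thresholds, list lengths, overlap rules, ranks and leaving out each SKI list. The split into structural subunits and the rule of 1 overlapping site were added after the data were seen.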

Additional observations from a re-analysis of the deposited data

How the results depend on the processing

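Of 58 alternative values, 51 stayed within 1.5 times the count given, or within the 95% binomial interval of the median, and 7 moved. Among the 51 were all 7 alternatives for the median percentile of RUNX1, which rests on 2 genes. Its interval, 1.56 to 50.5, is only the range of those 2 values and cannot reach 95%, so staying within it says little. In control cells the interval ran from 10.7 to 58.4, so that 45.4 by tags, against 17.5, counted as within it. The 51.4 of all genes lies within it too. The interval takes genes of 1 library as independent draws, which they are not. It served only to label the alternatives and gives no test against all genes. The number of genes with a tss-class SKI peak in all 3 lists, 11, was 6 at −log10 p of at least 10 (20.2% of all protein-coding genes) and 6 with structural subunits only. Leaving out each SKI list in turn gave 11 to 23, the 23 without the control cells (33.9% of all genes), 14 without WT_SKI replicate 2 (31.2%) and 11 without WT_SKI replicate 1 (25.2%). The count in replicate 2, 23, was 9 at −log10 p of at least 10 (27.9%). The count of genes with a RUNX1 peak overlapping SKI, 6, was 2 with any RUNX1 peak within 1000 bp of a rebuilt TSS (5.87% of all genes), a rule that drops the 4 distant peaks, and 5 to 6 when each SKI list was left out. The median percentile in replicate 1, 39.1, was 47.6 by tags, and in replicate 2, 28.3, it was 19.9 by −log10 p. For the other moves the cause was not tested. The sequencing depth behind the lists is unknown, so a missing peak says that none was called and not that the protein was absent. No paired analysis was possible because no test between lists was run and replicate 1 is the sole number common to both cell types.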
